A study of Homo sapiens with 6 samples.

Results

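The genes described here encode the MHC class I molecule and the machinery that supplies it with peptides, namely the heavy chains HLA-B, HLA-C, HLA-E and HLA-F, the light chain B2M, the peptide transporter subunits TAP1 and TAP2, and the immunoproteasome subunits PSMB8 and PSMB9. They were taken by symbol from the annotation of the deposited gene identifiers, which gave 9 genes of the 58735 in each library. RNA was sequenced from A549, a much used cell line derived from a human lung adenocarcinoma, here labelled wild type. In the B35 group the cells received B35, which the series names as an inhibitor of the histone demethylase LSD1, at 2 µM for 72 h. In the control group they stayed untreated over that period. Each group had 3 libraries. Both groups grew in DMEM with serum and antibiotics. No solvent is named for the untreated cells, and nothing in the labels says that replicate libraries are separate cultures. The p-values therefore measure the spread between these libraries alone, which may be technical. All cells came from 1 tumour line. The question the comparison addresses is what the inhibitor does to transcript levels in that line.

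Class I molecules display short peptides from inside the cell to CD8 T cells and to natural killer cells. Proteasomes cut proteins into peptides, TAP1 and TAP2 together carry the peptides into the endoplasmic reticulum, and a loading complex fits them into a heavy chain paired with beta-2 microglobulin, the product of B2M. Interferon and NF-kB signals are known to raise transcription of these genes in epithelial cells, and many tumours show low class I levels.

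Deposited counts summed to between 17209863 and 18530670 in the B35 libraries and between 17141478 and 18398450 in the control libraries. Epithelial markers were mixed in these cells. Of the keratins, KRT19 had only 2 to 8 counts in a library, and the adhesion gene CDH1 had 5 to 28. KRT8 was abundant, at 1117 ± 158 CPM (counts divided by TMM-scaled library totals) in B35 cells and 1663 ± 34.9 CPM in control cells (SD, n = 3 each). KRT8 was 1.49-fold lower with B35 (log2 −0.57 ± 0.11, SE, edgeR adjusted p = 0.00611), and the adhesion molecule EPCAM, at 7.21 ± 0.197 CPM in B35 cells and 3.36 ± 0.255 CPM in control cells, was 2.14-fold higher (edgeR adjusted p = 0.00248). Of 10 epithelial and lung markers 6 stayed under 10 counts in every library, among them the alveolar genes SFTPB, SFTPC and NKX2-1. Of 12 leukocyte markers 10 stayed under 10 counts in every library, and 6 of these were listed at 0 throughout, among them CD3D, CD3E and MS4A1. The 12 leukocyte markers summed to 56 to 63 counts in B35 libraries and 38 to 57 counts in control libraries. The myeloid integrin ITGAM had 1.76 CPM in B35 cells and 1.11 CPM in control cells and did not pass (edgeR adjusted p = 0.187). Of 8 fibroblast and endothelial markers 4 had enough counts to test and none passed, with COL1A1 at 19.9 CPM in B35 cells and 25 CPM in control cells and CDH5 at 7.66 CPM in B35 cells and 6.10 CPM in control cells. COL1A1 passed as lower only with the GC and length trend removed (edgeR adjusted p = 0.00840). Of the B35 libraries, replicate 1 stood apart, since 3342 genes changed without it and 1590 to 1646 without another B35 library. In bulk RNA, fewer cells of a type and less RNA per cell cannot be told apart.

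All 4 heavy chain genes, B2M and TAP1 rose with B35, while TAP2, PSMB8 and PSMB9 did not pass the test. A gene was called changed where the adjusted p of edgeR's quasi-likelihood test was under 0.05 over 14773 tested genes. All 9 genes had enough counts to be tested, and 6 of them rose and 0 fell, where 8.82% of all tested genes rose and 6.59% fell. The same 6 genes were higher in each B35 library than in any control library, a pattern found in 18.8% of all tested genes. Over all 9 genes the log2 fold changes ran from −0.11 to 0.87 with a median of 0.41, beside a median of 0.0067 over all genes tested. The rises were moderate in size, none reaching 2-fold. Without B35 replicate 1 the same 6 genes passed, with log2 fold changes of 0.36 (B2M) to 1.01 (HLA-F), and PSMB9 passed too.

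**Figure D1:**
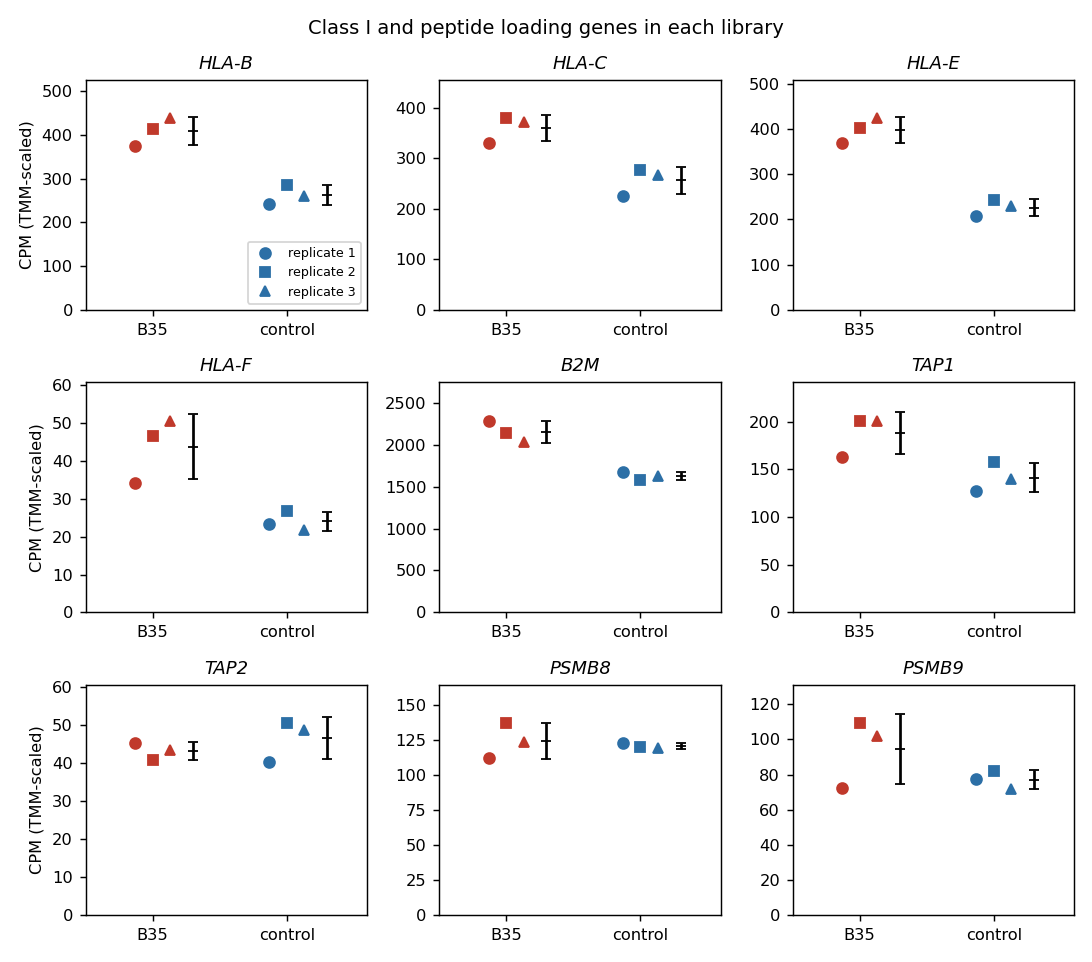
CPM in each library of the 9 genes, with B35 libraries in red and control libraries in blue, a marker shape for each replicate number, and the mean ± SD beside each group. The B35 and control points are apart for HLA-B, HLA-C, HLA-E, HLA-F, B2M and TAP1 and overlap for TAP2, PSMB8 and PSMB9.

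The genes of the MHC lie together on chromosome 6 and B2M lies alone on chromosome 15, and their promoters are known for carrying interferon response elements and NF-kB sites. Promoter windows of 300 bases, from 250 before to 50 after the RNA start, were found in RefSeq (GRCh38.p14) for 8 of the 9 genes, all but HLA-E. Where a gene had several starts, the window nearest its GENCODE 29 start was taken. The windows shown are those of 2 heavy chains and the light chain, which rose, and of TAP1, PSMB9 and TAP2, of which TAP1 alone passed the test. For PSMB9 that RefSeq start (32854192) lies inside the GENCODE span, whose outermost start (32844136) is beyond TAP1. Between this RefSeq start on the plus strand and that of TAP1 on the minus strand lie 487 bases, and the windows share 13 bases. The windows are chr6:31357130-31357429 (minus strand) for HLA-B, chr6:29723184-29723483 (plus) for HLA-F, chr15:44711267-44711566 (plus) for B2M, chr6:32853655-32853954 (minus) for TAP1, chr6:32853942-32854241 (plus) for PSMB9 and chr6:32838690-32838989 (minus) for TAP2. Each is printed from 5′ to 3′ on its own strand, and capitals mark matches to the interferon response core (GAAA, any 2 bases, GAAA) or to the NF-kB type (GGG, any 2 bases, TT, any 1 base, CC), on either strand.
HLA-B: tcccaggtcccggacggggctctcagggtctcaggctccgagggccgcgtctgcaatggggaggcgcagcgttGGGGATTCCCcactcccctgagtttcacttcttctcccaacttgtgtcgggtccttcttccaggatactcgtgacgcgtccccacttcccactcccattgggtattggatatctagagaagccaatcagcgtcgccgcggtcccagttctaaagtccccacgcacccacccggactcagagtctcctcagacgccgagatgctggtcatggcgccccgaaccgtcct
HLA-F: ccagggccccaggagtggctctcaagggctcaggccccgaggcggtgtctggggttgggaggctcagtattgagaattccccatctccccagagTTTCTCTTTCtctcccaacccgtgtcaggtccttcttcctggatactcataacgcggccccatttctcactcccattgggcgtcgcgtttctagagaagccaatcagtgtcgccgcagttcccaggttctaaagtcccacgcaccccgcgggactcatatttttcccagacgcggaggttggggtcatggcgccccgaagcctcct
B2M: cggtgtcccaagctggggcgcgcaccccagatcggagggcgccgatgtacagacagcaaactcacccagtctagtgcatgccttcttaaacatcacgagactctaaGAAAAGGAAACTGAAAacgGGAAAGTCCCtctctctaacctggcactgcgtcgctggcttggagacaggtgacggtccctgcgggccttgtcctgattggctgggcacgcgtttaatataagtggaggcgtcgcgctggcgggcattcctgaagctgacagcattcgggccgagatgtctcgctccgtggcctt
TAP1: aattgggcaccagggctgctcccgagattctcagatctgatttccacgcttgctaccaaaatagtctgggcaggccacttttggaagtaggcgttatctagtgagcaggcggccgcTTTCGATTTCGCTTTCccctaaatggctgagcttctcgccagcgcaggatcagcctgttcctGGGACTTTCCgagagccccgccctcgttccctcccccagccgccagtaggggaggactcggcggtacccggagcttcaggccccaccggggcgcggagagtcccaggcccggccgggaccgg
PSMB9: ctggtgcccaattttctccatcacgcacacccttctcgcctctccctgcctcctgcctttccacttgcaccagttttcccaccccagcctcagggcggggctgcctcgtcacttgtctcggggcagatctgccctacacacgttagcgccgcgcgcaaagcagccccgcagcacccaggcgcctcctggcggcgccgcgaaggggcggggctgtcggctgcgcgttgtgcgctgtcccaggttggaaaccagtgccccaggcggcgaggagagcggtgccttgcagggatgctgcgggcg
TAP2: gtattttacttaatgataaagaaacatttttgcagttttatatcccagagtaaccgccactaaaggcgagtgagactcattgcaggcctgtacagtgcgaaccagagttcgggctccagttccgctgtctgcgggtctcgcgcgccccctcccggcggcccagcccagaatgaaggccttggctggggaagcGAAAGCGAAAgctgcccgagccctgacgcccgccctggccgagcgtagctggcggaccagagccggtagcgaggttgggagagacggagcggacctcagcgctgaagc

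The interferon response core was found in 4 of the 8 windows, those of HLA-F, B2M, TAP1 and TAP2, against 3.57% of all 35116 promoter windows of this length. In B2M its 2 matches began 144 and 138 bases before the start and overlapped each other, and in TAP1 2 overlapping matches began 134 and 128 bases before the start. TAP2 carried 1 match, 58 bases before its start, and its transcript did not pass the test. The NF-kB type was found in 3 windows, those of HLA-B, B2M and TAP1, against 5.68% of all windows. The windows of B2M and TAP1 held both motifs. The TAP1 matches lie between the TAP1 and PSMB9 starts, so they are also upstream of PSMB9, outside its window. The core of the cyclic AMP element (TGACG, either strand) was in 6 of the 8 windows against 24.6% of all. The Y box core (CCAAT, either strand) was in 6 against 34.6%. Its matches in TAP1 and PSMB9 are the same bases, inside the 13 that these windows share. No window held the GAS letters TTCNNNGAA, present in 7.66% of all. Such matches describe letters only. A window without a match could still hold a site that departs from these letters.

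HLA-E was the heavy chain with the smallest adjusted p. Its product presents signal peptides of other class I chains to the inhibitory receptor NKG2A on natural killer cells. HLA-E (ENSG00000204592, chromosome 6, 30489467 to 30494205, plus strand, hg38) measured 368, 401 and 424 CPM in B35 libraries and 207, 243 and 229 CPM in control libraries. Every B35 library was above every control library. The means were 398 ± 28.1 CPM in B35 cells and 226 ± 18.0 CPM in control cells (SD, n = 3 each), which is 1.76-fold higher with B35 (log2 0.81 ± 0.097, SE, edgeR adjusted p = 0.000636).

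HLA-F, a nonclassical heavy chain that can reach the surface without peptide, had the largest fold change of the 9 genes and the lowest level of the heavy chains. HLA-F (ENSG00000204642, chromosome 6, 29722775 to 29738528, plus strand) measured 34.3, 46.5 and 50.7 CPM in B35 libraries and 23.3, 26.9 and 21.8 CPM in control libraries. The lowest value among B35 libraries, in replicate 1, still exceeded the highest control value. Its fold change was 1.82 (log2 0.87 ± 0.15, edgeR adjusted p = 0.00422). Exons of HLA-F overlap the antisense gene HLA-F-AS1 over 12.3% of its merged exon length. HLA-F-AS1 had at most 101 counts in a library. The pseudogene AL645939.1 overlaps a further 16.1%.

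HLA-B and HLA-C, the classical chains that present peptides to CD8 T cells, rose by less. HLA-B (ENSG00000234745, chromosome 6, 31269491 to 31357188, minus strand) measured 375, 414 and 438 CPM in B35 libraries and 242, 286 and 261 CPM in control libraries. This was 1.56-fold higher (log2 0.64 ± 0.099, edgeR adjusted p = 0.00252), with the groups well apart. HLA-C (ENSG00000204525, chromosome 6, 31268749 to 31272130, minus strand), which also engages killer cell receptors, measured 331, 380 and 371 CPM in B35 libraries and 226, 277 and 267 CPM in control libraries. It was 1.41-fold higher (log2 0.49 ± 0.10, edgeR adjusted p = 0.0103), and that call was lost without control replicate 1 (adjusted p = 0.0519). HLA-E, HLA-F and HLA-B kept theirs whichever library was left out.

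The heavy chains resemble one another, so reads could be split between them. Of 1498 stretches of 50 bases in the longest HLA-B transcript of GENCODE 29, 30 also occurred in that of HLA-C, 1 in that of HLA-E and 3 in that of HLA-F. Between HLA-C and HLA-E 26 stretches were shared, and between HLA-E and HLA-F 22. The annotated span of HLA-B overlaps the gene of HLA-C, and the 2 share 35 exon bases. The reads were aligned to the hg38 reference alleles, and how the alleles of A549 bear on the level of each chain was not tested.

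B2M, the light chain that every class I molecule needs, was the most abundant of the 9 genes. B2M (ENSG00000166710, chromosome 15, 44711487 to 44718877, plus strand) measured 2286, 2144 and 2028 CPM in B35 libraries and 1672, 1579 and 1629 CPM in control libraries. It was 1.32-fold higher (log2 0.40 ± 0.085, edgeR adjusted p = 0.0104), and the groups did not overlap. The call was lost without control replicate 2 or control replicate 3 (edgeR adjusted p = 0.0584 and 0.0730), with a log2 fold change of 0.38 and 0.40 there. Of the B35 libraries, replicate 1 was the highest for B2M and the lowest for each of the 4 heavy chains.

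The summed FPKM (reads per kilobase of exon and scaled for library total, as deposited) of the 4 heavy chains was set against that of B2M in each library. The ratio was 1.03, 1.23 and 1.34 in B35 libraries and 0.888, 1.12 and 1.02 in control libraries. The groups overlapped, and the log2 ratio differed by 0.24 between B35 and control, with an SD of 0.19 in B35 libraries and 0.17 in control libraries. The difference was of the order of the spread between libraries. With HLA-B and HLA-C alone it was 0.16.

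TAP1 rose and TAP2 did not pass, although the 2 subunits form the transporter together. TAP1 (ENSG00000168394, chromosome 6, 32845209 to 32853978, minus strand) measured 163, 201 and 200.2 CPM in B35 libraries and 127, 157 and 139 CPM in control libraries. The B35 and control values did not overlap, but the lowest B35 library and the highest control library were close. It was 1.33-fold higher (log2 0.41 ± 0.11, edgeR adjusted p = 0.0335). This was the least stable of the 6 calls, lost without B35 replicate 2, B35 replicate 3, control replicate 1 or control replicate 3 (edgeR adjusted p = 0.104, 0.0884, 0.140 and 0.136). TAP2 (ENSG00000204267, chromosome 6, 32821833 to 32838780, minus strand) measured 45.3, 40.8 and 43.5 CPM in B35 libraries and 40.4, 50.6 and 48.8 CPM in control libraries. Those ranges overlapped (log2 −0.11 ± 0.11, edgeR adjusted p = 0.554). The FPKM ratio of TAP1 to TAP2 was 4.79, 6.56 and 6.12 in B35 libraries and 4.18, 4.13 and 3.80 in control libraries. Every B35 library had the higher ratio, by 1.43-fold between geometric means, a comparison chosen after the values were seen and given without a test. TAP2 shares 32.3% of its exon length with the gene AL669918.1, which had at most 3 counts in a library.

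PSMB8 and PSMB9 replace standard catalytic subunits in the immunoproteasome, the form that favours peptides suited to class I. PSMB8 (ENSG00000204264, chromosome 6, 32840717 to 32844703, minus strand) measured 112, 137 and 124 CPM in B35 libraries and 123, 120 and 119 CPM in control libraries. The control values fell within the wider B35 range (log2 0.042 ± 0.097, edgeR adjusted p = 0.815). PSMB9 (ENSG00000240065, chromosome 6, 32844136 to 32859585, plus strand) measured 72.1, 109 and 102 CPM in B35 libraries and 77.6, 82.1 and 71.5 CPM in control libraries. B35 replicates 2 and 3 lay above all controls and B35 replicate 1 lay among them (log2 0.29 ± 0.14, edgeR adjusted p = 0.190). Without B35 replicate 1, PSMB9 passed with a log2 fold change of 0.45 (edgeR adjusted p = 0.00362), and PSMB8 still did not (0.347). The 2 genes share 139 exon bases on opposite strands, and both overlap PSMB8-AS1, which had at most 78 counts in a library.

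Levels were compared between genes per length, by FPKM over merged exons. B2M was highest at 349 ± 21.9 FPKM in B35 cells and 266 ± 7.76 FPKM in control cells (SD, n = 3 each). HLA-C followed at 142 ± 10.6 FPKM in B35 cells and 102 ± 10.7 FPKM in control cells. HLA-B had 132 ± 10.0 FPKM in B35 cells and 85.8 ± 7.21 FPKM in control cells, and HLA-E had 132 ± 8.99 FPKM in B35 cells and 75.7 ± 6.01 FPKM in control cells, so these 3 neighbours lay within about 1 SD of each other in B35 cells. PSMB8 came next with 40.8 ± 4.34 FPKM in B35 cells and 40.0 ± 0.621 FPKM in control cells, and TAP1 had 38.6 ± 4.46 FPKM in B35 cells and 29.2 ± 3.13 FPKM in control cells. Their order was within the spread in B35 cells. PSMB9 had 30.3 ± 6.41 FPKM in B35 cells and 25 ± 1.66 FPKM in control cells. HLA-F and TAP2 were lowest, HLA-F at 9.94 ± 1.92 FPKM in B35 cells and 5.50 ± 0.588 FPKM in control cells and TAP2 at 6.66 ± 0.325 FPKM in B35 cells and 7.26 ± 0.856 FPKM in control cells, so their order differed between the groups. Merged exon length counts exons that few transcripts use, 6079 bases for B2M, and lowers such a level.

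Most other genes of the loading complex and of peptide trimming in the endoplasmic reticulum did not pass. Of 9 tested, 1 rose and 2 fell, where 8.82% of all tested genes rose and 6.59% fell. The median log2 fold change of the 9 was −0.16. ERAP1, the aminopeptidase that trims peptides to class I length, measured 92.8 ± 5.09 CPM in B35 cells and 72.5 ± 4.84 CPM in control cells and rose by 1.28-fold (log2 0.36 ± 0.095, edgeR adjusted p = 0.0293). Calreticulin, CALR, which holds the heavy chain during loading, was 1.36-fold lower, at 838 ± 120.3 CPM in B35 cells and 1139.7 ± 127 CPM in control cells. The thiol oxidoreductase PDIA3, its partner, was 1.25-fold lower, at 387 ± 18.9 CPM in B35 cells and 484 ± 27.6 CPM in control cells. Tapasin, TAPBP, which bridges TAP and the heavy chain, had 310.4 CPM in B35 cells and 255 CPM in control cells without passing (log2 0.28 ± 0.095, edgeR adjusted p = 0.0675), and it was singled out after its values were seen. ERAP1 lost its call without B35 replicate 3 or any 1 control (edgeR adjusted p = 0.0649 to 0.125). CALR lost its call without B35 replicate 2, control replicate 2 or control replicate 3 (0.0710 to 0.120), and PDIA3 without any 1 library but B35 replicate 1 (0.0518 to 0.155). ERAP1 shares exons with CAST, PDIA3 with ELL3, and CALR with an antisense gene.

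Of the 3 standard catalytic subunits, PSMB5 and PSMB6 fell with B35 and PSMB7, at a log2 fold change of −0.39, just missed the threshold (edgeR adjusted p = 0.0526). Of 5 tested genes for standard subunits and the alternative activators, 0 rose and 3 fell, beside 8.82% and 6.59% of all tested genes. The median log2 fold change of the 5 was −0.39. PSMB5, whose place PSMB8 takes, was 1.34-fold lower, at 92.1, 122 and 110.2 CPM in B35 libraries and 140.2, 153 and 140.2 CPM in control libraries (log2 −0.42 ± 0.11, edgeR adjusted p = 0.0297). PSMB6, whose place PSMB9 takes, was 1.27-fold lower, at 73.4, 87.8 and 86.4 CPM in B35 libraries and 103, 108 and 104 CPM in control libraries (log2 −0.35 ± 0.098, edgeR adjusted p = 0.0372). The nuclear activator PSME3, which shares exons with BECN1, was 1.5-fold lower (log2 −0.59 ± 0.086, edgeR adjusted p = 0.00203) in every setting tried. Both PSMB5 and PSMB6 lost their calls without B35 replicate 3 or any 1 control, and PSMB6 also without B35 replicate 2 (edgeR adjusted p = 0.0514 to 0.132 in all). Of 4 tested genes for the third immunoproteasome subunit, the activator it works with and the assembly factor, 0 rose and 2 fell, with a median log2 fold change of −0.28. POMP, which assembles proteasomes, was 1.48-fold lower, and PSME2, an interferon-inducible activator subunit that shares exons with RNF31, was 1.32-fold lower (edgeR adjusted p = 0.00983 and 0.0343). POMP lost its call without control replicate 1 (0.0510), and PSME2 without B35 replicate 3 or any 1 control (0.0865 to 0.117).

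Each inducible subunit was then set against the standard subunit it replaces, within a library, which removes library scaling. The FPKM ratio of PSMB8 to PSMB5 was 0.715, 0.661 and 0.661 in B35 libraries and 0.516, 0.460 and 0.501 in control libraries. For PSMB9 to PSMB6 the ratio was 0.463, 0.587 and 0.557 in B35 libraries and 0.356, 0.357 and 0.325 in control libraries. Both ratios were higher in every B35 library than in any control library, by 1.38-fold and 1.54-fold (exact two-sided permutation p = 0.1 for each, the smallest that 3 against 3 libraries allow, and 0.15 adjusted over the 3 ratios). For PSMB10 to PSMB7 the groups overlapped, at 0.0464, 0.0701 and 0.0733 in B35 libraries and 0.0515, 0.0547 and 0.0596 in control libraries (exact two-sided permutation p = 0.5). PSMB10 shares 34.8% of its exon length with the gene AC040162.1, and how this bears on its ratio was not tested. The mean of the 3 log2 ratios was higher by 0.42 in B35 libraries, with an SD of 0.16 in B35 libraries and 0.019 in control libraries.

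**Figure D2:**
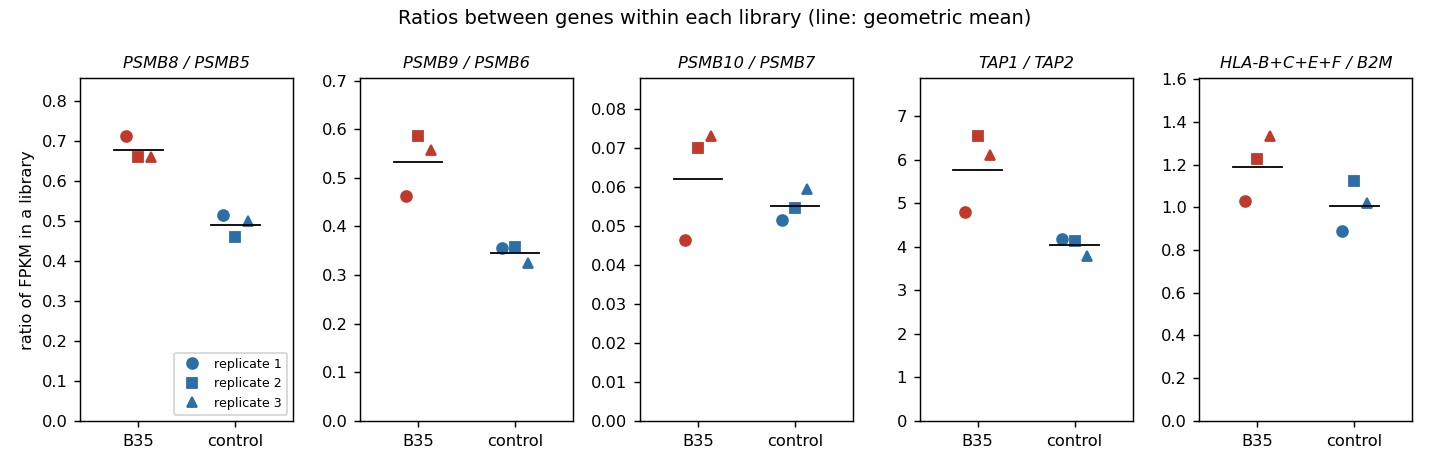
FPKM ratios between pairs of genes within each library, for B35 (red, left) and control (blue, right), with a marker for each replicate number and a line at the geometric mean. Ratios of PSMB8 to PSMB5, PSMB9 to PSMB6 and TAP1 to TAP2 are apart between groups, and those of PSMB10 to PSMB7 and of the heavy chains to B2M overlap.

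Peptidases of the cytosol, which can destroy or trim peptides before transport, mostly did not pass. Of 8 tested, 0 rose and 1 fell, beside 8.82% and 6.59% of all tested genes, with a median log2 fold change of −0.089. The one that fell was bleomycin hydrolase, BLMH, at 45.3 ± 1.57 CPM in B35 cells and 61.9 ± 0.186 CPM in control cells (1.36-fold lower, edgeR adjusted p = 0.00788), and its call was lost without control replicate 3 (0.0529).

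Most regulators that bind class I promoters did not pass. Of 16 tested, 2 rose and 1 fell, beside 8.82% and 6.59% of all tested genes, with a median log2 fold change of 0.011. NLRC5, the class I transactivator, had 68.0 ± 6.18 CPM in B35 cells and 65.5 ± 4.47 CPM in control cells (log2 0.054 ± 0.10, edgeR adjusted p = 0.770), and RFX5, which binds the X box with it, had 86.3 ± 2.1 CPM in B35 cells and 84.4 ± 2.23 CPM in control cells (edgeR adjusted p = 0.851). Both were singled out after their values were seen. IRF1, the interferon-induced factor that binds the response element, rose by 1.32-fold, at 36.2, 43.2 and 42.5 CPM in B35 libraries and 32.2, 30.5 and 29.4 CPM in control libraries (log2 0.41 ± 0.11, edgeR adjusted p = 0.0284). PRDM1, a repressor that can bind the same elements, rose by 1.82-fold, at 28.7 ± 2.65 CPM in B35 cells and 15.8 ± 0.389 CPM in control cells (edgeR adjusted p = 0.00113). ATF1, of the CREB family, was 1.26-fold lower (edgeR adjusted p = 0.0318). IRF1, whose exons overlap C5orf56, and ATF1 lost their calls without any 1 library but B35 replicate 1 (edgeR adjusted p = 0.0580 to 0.168), whereas PRDM1 kept its call throughout.

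Of 12 tested genes of the interferon receptors and their signalling, 3 rose and 0 fell, beside 8.82% and 6.59% of all tested genes. The list had a median log2 fold change of 0.28, beside 0.0067 over all genes tested. STAT2 and IRF9, parts of the complex that binds the response element after type I interferon, rose by 1.36-fold and 2.77-fold, and the interferon gamma receptor chain IFNGR2 by 1.29-fold (edgeR adjusted p = 0.0156, 0.0259 and 0.0297). STAT2 measured 79.1 ± 3.97 CPM in B35 cells and 58.4 ± 5.61 CPM in control cells. IRF9 rested on 18, 19 and 24 counts in B35 libraries and 8, 5 and 8 counts in control libraries, and 48.4% of its exon length overlaps AL136295.5. Without control replicate 1 or 3 STAT2 no longer passed (edgeR adjusted p = 0.0786 and 0.0862). IFNGR2, which shares exons with TMEM50B, lost its call without B35 replicate 2 or any 1 control (0.0706 to 0.135), and IRF9 without any 1 library but B35 replicate 1 (0.0590 to 0.108) and with DESeq2 (0.0552). None of the list rose without control replicate 1 or 3.

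**Figure D3:**
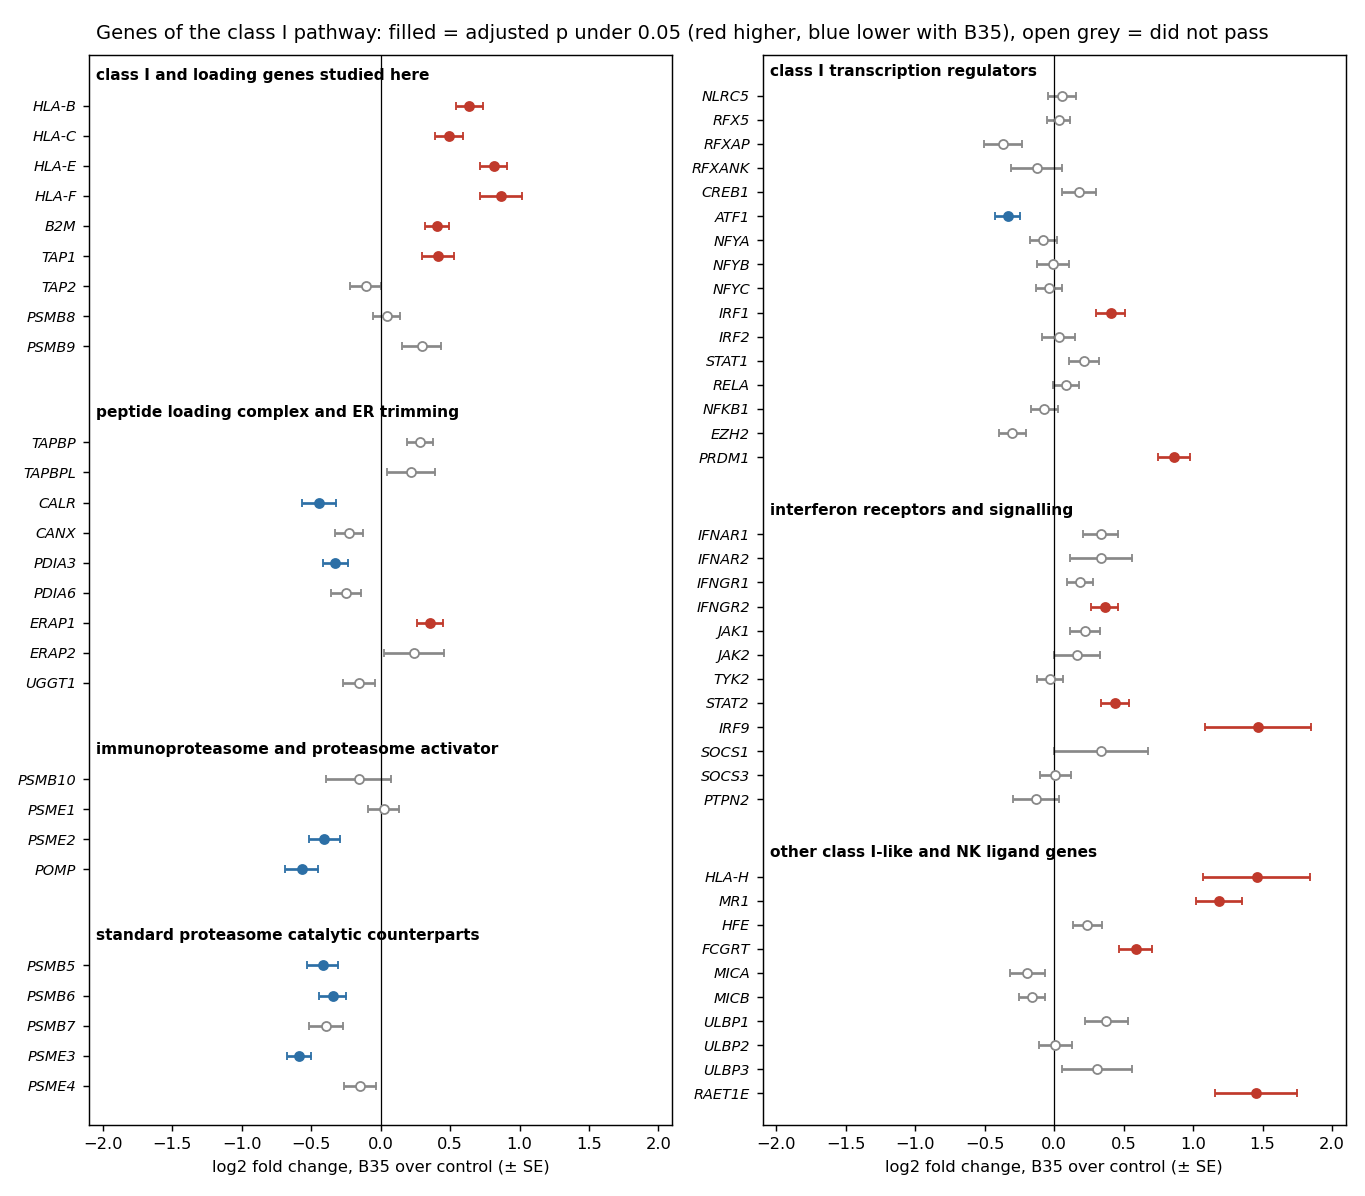
Log2 fold changes (B35 over control) with SE for the 9 genes and for tested genes of 6 related lists. Filled points passed an adjusted p of 0.05, red higher and blue lower with B35, and open grey points did not pass. The heavy chains, B2M and TAP1 lie right of 0 and the standard proteasome subunits lie left of it.

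Other molecules with a class I fold, and ligands of the natural killer receptor NKG2D, were tested in 10 of 17 cases. Of these 10, 4 rose and 0 fell, beside 8.82% and 6.59% of all tested genes. The median log2 fold change of the 10 was 0.34, beside 0.0067 over all genes tested. MR1, which presents vitamin B metabolites to MAIT cells, rose by 2.28-fold, at 17.4, 13.4 and 14.6 CPM in B35 libraries and 6.41, 7.75 and 5.71 CPM in control libraries (log2 1.19 ± 0.16, edgeR adjusted p = 0.0014). The neonatal Fc receptor FCGRT, which also pairs with B2M, rose by 1.5-fold, at 45.2 ± 6.17 CPM in B35 cells and 30.1 ± 2.02 CPM in control cells (edgeR adjusted p = 0.00932). RAET1E, an NKG2D ligand, rose by 2.73-fold at a low level, 2.69 ± 0.566 CPM in B35 cells and 0.980 ± 0.196 CPM in control cells (edgeR adjusted p = 0.00899), and its gene overlaps AL355312.5 over 1050 exon bases. The pseudogene HLA-H, which could take reads from class I genes, had 2.49, 5.61 and 7.27 CPM in B35 libraries and 1.34, 1.66 and 2.62 CPM in control libraries, and it passed with overlapping groups (log2 1.46 ± 0.38, edgeR adjusted p = 0.0278). Without control replicate 3 neither FCGRT nor RAET1E passed (edgeR adjusted p = 0.0622 and 0.0511). HLA-H lost its call without B35 replicate 2, B35 replicate 3, control replicate 1 or control replicate 2 (0.0712 to 0.112) and with limma-voom (0.0578). MR1 passed in every setting tried. Apart from RAET1E, no tested NKG2D ligand passed. MICA and MICB, both more abundant than RAET1E, had log2 fold changes of −0.19 and −0.16. Those of ULBP1, ULBP2 and ULBP3 were 0.38, 0.0085 and 0.31.

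Class II genes, which present peptides from outside the cell, had few or no counts in either group. Of 13, 11 stayed under 10 counts in every library and 7 were listed at 0 throughout, and neither of the 2 tested passed. HLA-DMA, which loads class II molecules, had 8.61 ± 1.09 CPM in B35 cells and 5.90 ± 1.03 CPM in control cells (log2 0.55 ± 0.18, edgeR adjusted p = 0.0615), and it passed without B35 replicate 1 (0.0374), with no filter on counts (0.0470), with the GC and length trend removed (0.0313) and with the replicate number as a block (0.0358). CIITA, the class II transactivator, had 1.49 ± 0.521 CPM in B35 cells and 1.58 ± 0.261 CPM in control cells.

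The MHC region from HLA-F to TAPBP (chromosome 6, 29722775 to 33314387) held 102 other tested genes, so the position of the 8 genes there could be set beside their neighbours. Of these, 13 rose and 3 fell, which is 12.7% higher and 2.94% lower beside 8.82% and 6.59% over all genes, with a median log2 fold change of 0.11. The smallest adjusted p-values outside the lists belonged to IER3, HCP5, PPP1R18 and TRIM31, and all 4 rose in every setting tried. IER3, an early response gene that shares exons with IER3-AS1, measured 248 ± 27.3 CPM in B35 cells and 88.8 ± 6.61 CPM in control cells (2.79-fold higher, edgeR adjusted p = 4.28e-05). HCP5, a long noncoding RNA beside the class I genes that shares exons with MICA, measured 34.7 ± 1.90 CPM in B35 cells and 19.6 ± 1.49 CPM in control cells (1.77-fold higher, edgeR adjusted p = 0.00113). PPP1R18, a phosphatase regulatory subunit, was 1.46-fold higher, and the ubiquitin ligase TRIM31, which shares exons with TRIM31-AS1, was 2.03-fold higher (edgeR adjusted p = 0.00299 and 0.00338). Rises and falls together numbered 27 without B35 replicate 1 and 9 without control replicate 2 or control replicate 3.

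**Figure D4:**
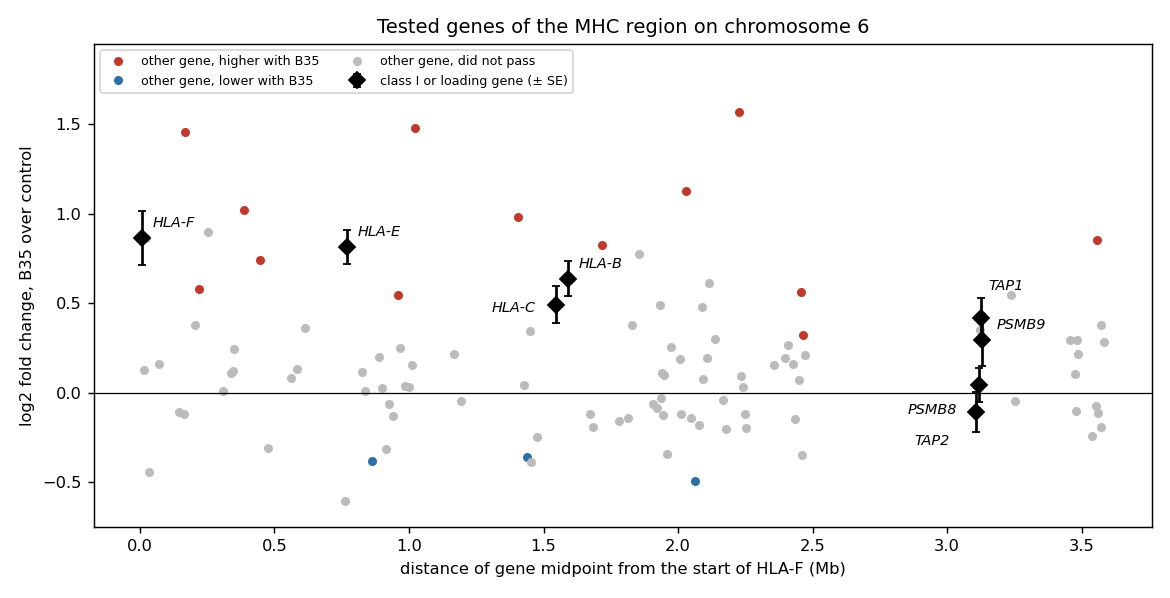
Log2 fold change (B35 over control) of each tested gene of the MHC region against the distance of its midpoint from the start of HLA-F, in Mb. Black diamonds with SE bars are the 8 class I and loading genes there, and other genes are red or blue where they passed and grey where they did not. HLA-F and HLA-E toward the left and HLA-C and HLA-B near the middle lie above most neighbours. TAP2 and PSMB8 at the right lie near 0.

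**Figure D5:**
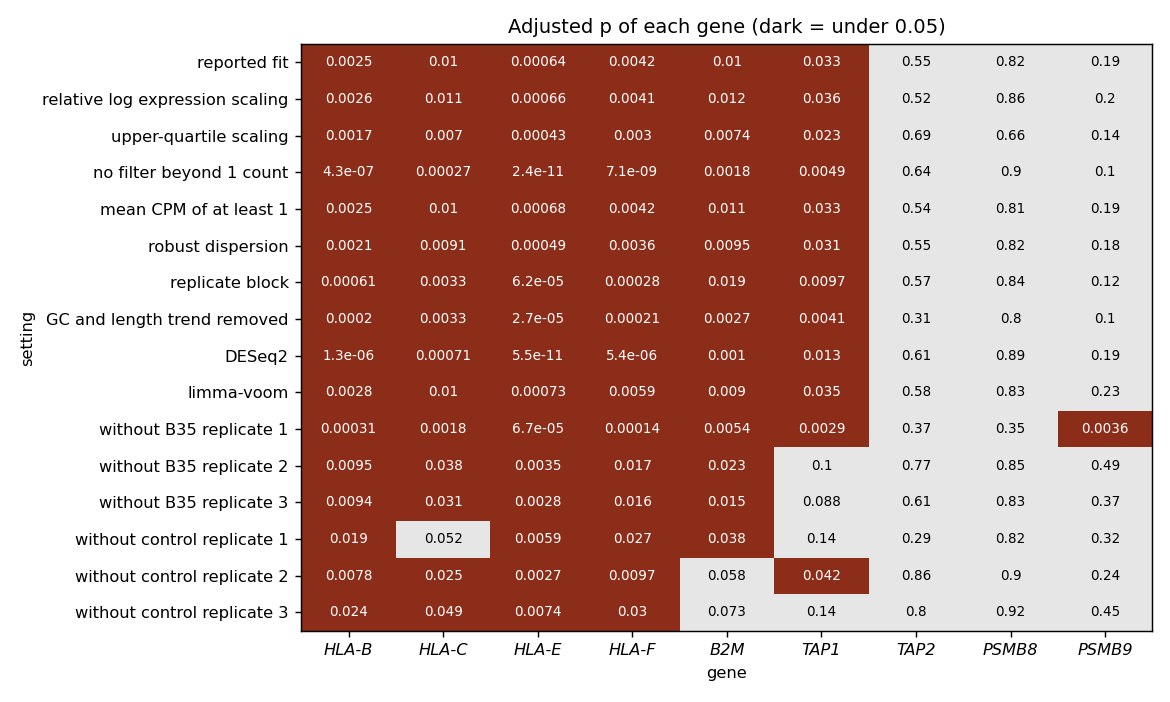
Adjusted p of each of the 9 genes (columns) under each setting (lines down the page), dark where it was under 0.05. HLA-B, HLA-E and HLA-F are dark throughout, HLA-C is not without control replicate 1, B2M is not without control replicates 2 or 3, TAP1 is lost in 4 settings that leave out a library, and PSMB9 is dark only without B35 replicate 1.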

How the data were processed

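TRIzol extraction and a NEBNext Ultra kit gave the libraries, per the labels' protocols. The submitters' processing notes name HISAT2 2.0.5, featureCounts 1.5.0-p3 and hg38. The use of strand in counting was not given in the sources. Per the file headers, each deposited file has 2 values per gene from the authors, a raw count and an FPKM. All 58735 identifiers were found in GENCODE 29, also on GRCh38, which supplied symbols, coordinates and exon overlaps.

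The two-sided quasi-likelihood test of edgeR 4.0.16 (R 4.3.3) was run on the counts. Low genes were removed with filterByExpr, at a count of 10 and a total of 15, libraries were scaled by TMM, and p was adjusted by Benjamini-Hochberg over 14773 genes with a threshold of 0.05. SE is the log2 fold change divided by the square root of F. Deposited FPKM served for levels between genes and for ratios within a library. The score over heavy chains and B2M is given without its planned permutation test, because a p over chosen members supports nothing. The same holds for the printed permutation p of each subunit ratio, which could not fall below 0.1. Chi-square per degree of freedom between libraries of a group was 4.46 to 32.3, so none looked like 1 library deposited again, and each was counted once. Counts were also simulated, with 14594 genes in the fit. The test recovered 37.3% of 67 changes of 1.5-fold, 82.1% of 67 of 2-fold and 98.5% of 66 of 4-fold, and made 12 false calls. Far fewer genes were changed there than the 2276 called in these data, and the spread was drawn from the fitted trend. The rates may therefore differ in the data.

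Alternatives were other scalings and filters, a robust fit, the replicate number as a term, DESeq2 1.42.0, limma-voom (limma 3.58.1), each library's GC and length trend removed by lowess (span 0.3), and each library left out. Named genes were the 9 members, from each list the 4 smallest adjusted p-values that passed (in a list with no call, the 2 most abundant genes), and the 4 smallest adjusted p-values of the MHC region outside them. The members and lists were chosen with earlier results of these data known. A gene that the naming rule took is not reported here. Ratios, promoters and plots used Python 3.11.15, pandas 2.3.3, scipy 1.17.1 and matplotlib 3.10.9.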

Additional observations from a re-analysis of the deposited data

How the results depend on the processing

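HLA-B, HLA-E and HLA-F kept their calls in all 15 alternatives, with log2 fold changes of 0.58 to 0.70, 0.75 to 0.87 and 0.75 to 1.01. Of the 9 genes, 4 to 7 rose with 1 library left out and 6 rose in every other alternative, and none fell in any. Over all genes 2276 changed, against 3891 with the GC and length trend removed and 881 to 3342 with 1 library left out. The other MHC region genes that changed numbered 16, and 9 to 27 with 1 library left out. On the given strand alone, 2 windows held the interferon response core. The difference in the mean log2 ratio of the 3 subunit pairs stayed between 0.37 and 0.51 and the heavy chain to B2M ratio between 0.15 and 0.35 with 1 library left out. Over 40 named genes no direction reversed with a call. Leaving out 1 library lost 61 single calls and gained 2, and other settings lost 2 and gained 4. With the replicate number as a block, 6 of the 9 genes rose and 2855 genes changed. Deviations from the group means correlated at 0.16, 0.016 and −0.063 between same-numbered libraries, and at −0.22 to 0.25 between differently numbered ones. Such values cannot tell whether same-numbered libraries shared a batch or culture. Fits without 1 library use fewer samples. The calls of HLA-C, B2M and TAP1 were each lost in some of these fits and kept in others.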
